A study of Cucumis sativus with 25 samples.

Results

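The effect of day length on the whole miRNA population was measured in the shoot apex of cucumber (Cucumis sativus). The comparison used 12 of the 25 samples of the series, the small RNA libraries, and set 6 libraries from a long photoperiod against 6 from a short photoperiod with temperature held in the model. Of the 249 miRNAs in the deposited table, 248 had at least 10 tags summed over the 12 libraries and entered the test, and n-mir28, with 5 tags, did not. Of the 249 miRNAs, 68 belong to known plant families and 181 do not. The name of each of the 181 is shortened to n-mir with its number from the table.

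Seedlings of the inbred line 9930 were raised in climate chambers under 4 treatments with 3 replicates each. HL plants had 16 h of light at 28 °C and 8 h of dark at 25 °C. HS plants had 8 h of light at 28 °C and 16 h of dark at 25 °C. LL plants had 16 h of light at 20 °C and 8 h of dark at 15 °C, and LS plants had 8 h of light at 20 °C and 16 h of dark at 15 °C. HL and LL formed the long photoperiod, HS and LS the short one. All plants were of the same line and were given as 4 weeks old. The paper sets the harvest by stage, at 4 unfolded true leaves. The apical tissue was cut to 1 mm, with more than 500 apices used in each experiment. The apices were pooled, so the spread between libraries is not a spread between plants, and fewer cells of a type and less RNA per cell cannot be told apart in such tissue. A longer light period also gives more light in a day at the warmer day temperature, so day length, daily light and daily heat cannot be told apart. The identifiers of the mRNA table were not paired with gene names, so the apex label was not checked against marker genes.

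Plant miRNAs are cut from hairpin precursors by DICER-LIKE1 and are loaded into ARGONAUTE1, which slices mRNAs that match the miRNA along most of its length. In the shoot apex they set the age of the plant, the layout of the meristem and the response to auxin. In Arabidopsis, miR156 and miR157 repress SPL transcription factors and hold the plant in its juvenile phase, whereas miR172 represses AP2-like factors and acts later, towards flowering. Levels below are given as tags or as CPM, the tags per 1000000 clean reads of the library.

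The mature sequences below belong to the miRNAs on which the results turn, as the deposited table gives them in DNA letters. Capitals mark the seed, bases 2 to 8 from the 5′ end. The first pair passed the test for day length.
miR827: tTAGATGAccatcaacgaacg
n-mir170: tGATTGTTgatggaggcttta
The next pair are the miRNAs of the SPL module. Aligned with miR157 shifted by 1 base, they differed by the substitutions G11T and T14A, counted from the 5′ end of miR156 with the base of miR156 first.
miR157: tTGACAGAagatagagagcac
miR156: tGACAGAAgagagtgagcac
The following 4 had the smallest p-values after miR157 among miRNAs with more than 3 CPM on average.
miR5532: tGGAATATatgacaaaggtgg
miR7741: tGTTATTGtggaagttcttga
miR162: tCGATAAAcctctgcatccag
miR398: gAGTGAACctgagaacacaaga
The last 4 are a miRNA with a higher level in long photoperiod at an unadjusted p under 0.05, one that was higher in HL than HS in every library, and both miRNAs that, with miR157, made up most of the tags.
miR4234: cAAATTAAaatcgtgggcat
n-mir214: tCAAGAATgtgacgatgtttg
miR166: tCGGACCAggcttcattcccc
miR167: tGAAGCTGccagcatgatcta
None of these 12 shared its seed with another of the 12. In the whole table, the seed of miR167 recurred in n-mir293, that of miR4234 in n-mir267 and that of n-mir214 in n-mir17 and n-mir145. n-mir59 and n-mir60 were listed with the same mature sequence and different counts, and their values are uncertain.

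The libraries held between 609415 and 1551482 miRNA tags each. The replicates of a treatment were distinct libraries, with chi-square values of 54.5 to 573 times their degrees of freedom, far above counting noise. LS replicate 1 stood most apart from the other LS libraries and LL replicate 1 from the other LL libraries. Values without a single library are given for the main results that they change. A count of 3 tags, used here as the floor of detection, corresponded to 0.170 to 0.180 CPM. Intervals and floors cover counting error only.

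Few miRNAs were lower and none higher in long photoperiod at the thresholds of the study, a change over 2-fold with an unadjusted p under 0.001. By edgeR's quasi-likelihood test, miR827 and n-mir170 fell, which is 2 of 248 miRNAs (0.806%), and 0 rose. The same 2 miRNAs were the only ones with a Benjamini-Hochberg adjusted p under 0.05. Without a fold threshold, 19 miRNAs were lower in long photoperiod at an unadjusted p under 0.05 (7.66%), and 1 was higher (0.403%). This split depended on the scaling, with 18 lower and 4 higher under TMM scaling, 11 lower and 10 higher in DESeq2, and 4 lower and 15 higher with the summed miRNA tags as library size. It also depended on single libraries, with 12 lower and 9 higher without LS replicate 1, 25 lower and 7 higher without LS replicate 2, and 11 lower and 0 higher without LL replicate 2. At the thresholds of the study, DESeq2 called 3 lower and 0 higher. The median log2 change over the 248 miRNAs was -0.05, with 139 below 0 (56%) and 109 above 0 (44%). The size of the change was under 0.5 on the log2 scale for 195 miRNAs (78.6%) and over 1 for 17.

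**Figure D1:**
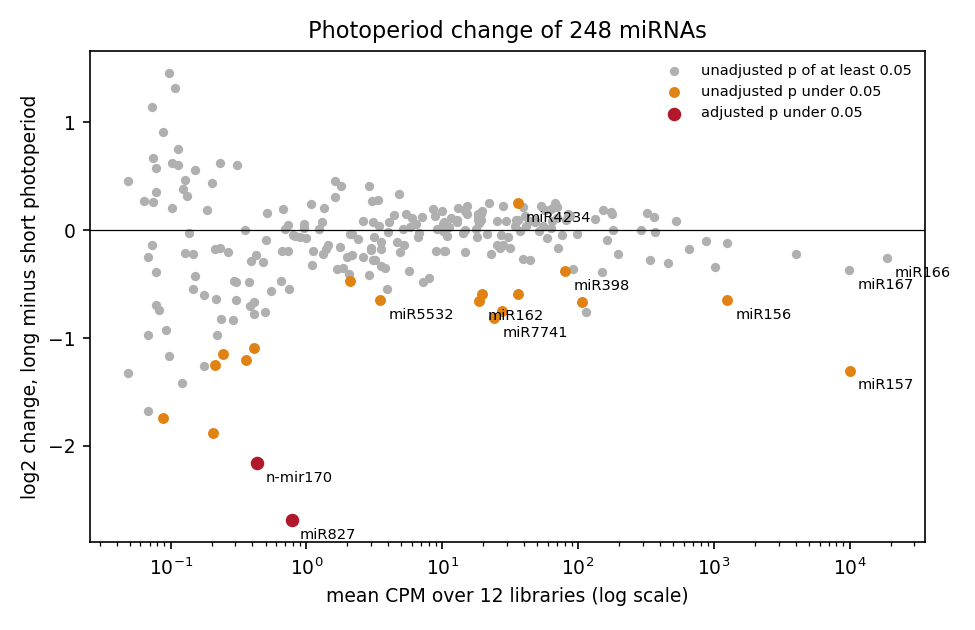
Log2 change in long minus short photoperiod (vertical axis) against mean CPM over 12 libraries (horizontal axis, log scale) for 248 miRNAs, 1 point each. Most of the points lie within 0.5 of 0, the 2 red points, miR827 and n-mir170, have an adjusted p under 0.05, and 19 of the 20 coloured points, all with an unadjusted p under 0.05, lie below 0.

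miR827, which in Arabidopsis responds to phosphate supply and represses an SPX-domain ubiquitin ligase, had the largest change among all tested miRNAs. It was counted 2, 1 and 3 times in the HL libraries and 29, 17 and 67 times in the HS libraries. At low temperature it was counted 4 times in each LL library and 9, 7 and 13 times in the LS libraries. All 6 long photoperiod libraries were below all 6 short photoperiod libraries. Relative to clean reads, the summed tags in HL were 0.0546 of those in HS (95% exact interval 0.0196 to 0.122) and those in LL were 0.413 of those in LS (0.192 to 0.835). The photoperiod change was -2.69 on the log2 scale (SE 0.45, n = 6 libraries each, edgeR adjusted p = 0.00943). Without LS replicate 3 it was -2.55 with an adjusted p of 0.0593, and it stayed below 0.05 when any other library was left out. The difference between the changes at both temperatures was -2.87 (SE 0.97), with an unadjusted p of 0.0105 and an adjusted p of 0.937 in edgeR.

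n-mir170, which belongs to no known family and has no role assigned here, was counted 1, 2 and 3 times in HL, against 17, 10 and 12 times in HS. In LL it was counted 2, 5 and 3 times, against 13, 4 and 17 times in LS. HL lay below HS in every library, while LL and LS overlapped through LS replicate 2. The summed tags in HL were 0.158 of those in HS (95% exact interval 0.0547 to 0.376), and those in LL were 0.294 of those in LS (0.129 to 0.608). The change was -2.16 on the log2 scale (SE 0.41, n = 6 each, edgeR adjusted p = 0.0179). The adjusted p was between 0.0568 and 0.079 without HL replicate 1 or 2, HS replicate 1, LL replicate 1 or 3, or LS replicate 3. Both called miRNAs thus rest on few tags per library, at or below the floor of 3 in all HL libraries.

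miR157 had the largest change among the 7 miRNAs that averaged over 1000 CPM. Its level was 4161, 5026 and 6078 CPM in HL, against 13625, 13755 and 21880 CPM in HS. In LL it was 8908, 3871 and 6442 CPM, against 18622, 6619 and 10923 CPM in LS. The HL and HS libraries did not overlap, whereas LL replicate 1 lay above LS replicate 2. The change was -1.30 on the log2 scale, 0.406-fold (SE 0.32, n = 6 each), with an unadjusted p of 0.00125 and an adjusted p of 0.103 in edgeR, so miR157 did not pass either threshold. The call depended on the scaling and on other settings. The adjusted p was 0.0484 with TMM scaling, 0.00125 with DESeq2 and 0.00029 with the summed miRNA tags as library size, where the change was -0.87. In edgeR with the clean reads as library size it was 0.0274 without LS replicate 2. It was 0.039 with the replicate number added to the model, although no label gives that number as a batch.

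As a share of the miRNA tags, miR157 made up 10.8 to 12.2% in HL and 10.5 to 15.6% in LL, against 23.6 to 27.6% in HS and 16.5 to 20.8% in LS. The shares of the 6 long and the 6 short photoperiod libraries did not overlap. miR166, which represses HD-ZIP III factors that pattern the meristem and leaf, made up 32.8 to 43.0% in HL and 28.6 to 38.3% in LL, against 28.6 to 34.1% in HS and 28.2 to 38.2% in LS. miR167, which represses the auxin response factors ARF6 and ARF8 in Arabidopsis, made up 14.4 to 19.1% in HL and 16.8 to 25.2% in LL, against 15.1 to 19.6% in HS and 13.5 to 24.4% in LS. For miR166 and miR167 the shares overlapped between photoperiods at both temperatures.

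**Figure D2:**
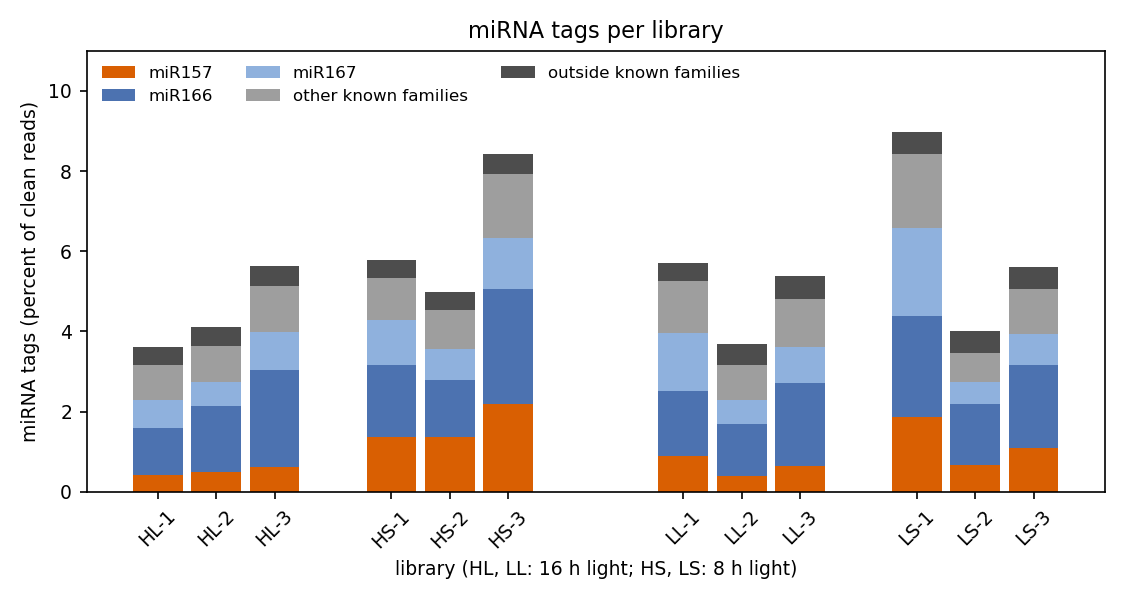
miRNA tags as percent of clean reads (vertical axis) in each of the 12 libraries, split into miR157, miR166, miR167, the other known families and the miRNAs outside known families. The orange miR157 segment is lower in each HL library than in each HS library, and the dark segment on top, the miRNAs outside known families, lies between 0.436% and 0.571% in all 12 libraries.

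The summed miRNA tags took a smaller mean share of the clean reads in long photoperiod, but the difference did not pass the exact test between libraries. The share was 3.60, 4.11 and 5.62% in HL and 5.78, 4.98 and 8.42% in HS, then 5.72, 3.68 and 5.38% in LL and 8.97, 4.00 and 5.60% in LS. The difference, averaged over temperatures, was -1.61 percentage points (exact permutation test within temperature, two-sided, p = 0.135, adjusted p = 0.259 over 23 measures of the population). Without LS replicate 2 it was -2.15 points (p = 0.04, exact), and without LS replicate 1, the library with the most miRNA tags, -0.913 points (p = 0.30). The difference lay in the known families, with 4.19 ± 0.98% in long and 5.79 ± 1.97% in short photoperiod (SD, n = 6 each, exact permutation p = 0.135). Without LS replicate 2 the difference in known families was -2.15 points (exact permutation p = 0.04). Most of the difference over all 12 libraries lay in the most abundant members of these families. The difference in summed tags was -0.758 points without miR157 (exact permutation p = 0.365) and -0.183 points without the 3 most abundant miRNAs (exact permutation p = 0.395). The miRNAs outside known families took 0.493 ± 0.043% in long and 0.499 ± 0.054% in short photoperiod (exact permutation p = 0.775).

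Of the 23 measures, 7 had an adjusted p under 0.05 in the exact test, whose smallest possible p was 0.005. These 7 are not independent, since shares of the miRNA tags add to 100%. Some of them are shares of lists of miRNAs grouped by role. Those lists were chosen with earlier results of these data known, so the p-values of their shares are descriptive. The strongest shift in points was the share of miR156, miR157, miR159 and miR172, the miRNAs of phase change and flowering. It was 15.6, 16.2 and 14.2% in HL, against 27.4, 31.8 and 29.9% in HS, and 19.7, 13.5 and 15.1% in LL, against 24.9, 19.1 and 22.9% in LS. The difference was -10.3 points (exact permutation p = 0.01, adjusted p = 0.0383). The share of the 9 miRNAs of meristem, organ and auxin development was higher in long photoperiod, with 59.3 ± 3.0% against 53.6 ± 3.3% (SD, n = 6 each), by 5.78 points (exact permutation p = 0.01, adjusted p = 0.0383). Most of this share was miR166 and miR167, and the share of each alone overlapped between photoperiods at both temperatures.

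The share of tags from miRNAs whose listed sequence starts with T was lower in long photoperiod. It was 84.4 ± 1.4% against 87.4 ± 0.74% (SD, n = 6 each), and the 2 sets of libraries did not overlap. The difference was -3.04 points (exact permutation p = 0.005, adjusted p = 0.0383). The share from miRNAs listed with A first was higher, with 12.7 ± 0.95% against 10.3 ± 1.1%, by 2.38 points (exact permutation p = 0.01, adjusted p = 0.0383). A 5′ T, which is U in the RNA, is the base preferred by ARGONAUTE1 in Arabidopsis, and a 5′ A that preferred by ARGONAUTE2 and ARGONAUTE4. The counts sum tags with up to 3 mismatches at the ends, so the first base and length of the tags themselves were not measured. The 3 most abundant miRNAs took 66.7 ± 3.2% of the tags in long photoperiod and 72.1 ± 2.6% in short photoperiod, a difference of -5.45 points (exact permutation p = 0.015, adjusted p = 0.0493).

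When miR157 was taken out of the totals, 5 of these 7 measures no longer had an unadjusted p under 0.05. The phase change share then differed by -0.679 points (exact permutation p = 0.14). The share starting with T differed by -1.52 (exact permutation p = 0.14) and the share starting with A by 1.10 (exact permutation p = 0.27). The 3 most abundant were ranked again without miR157, so this measure then covered miR166, miR167 and the next most abundant miRNA. The share of that changed set differed by -1.51 points (exact permutation p = 0.47). The meristem and auxin share turned to -1.46 points (exact permutation p = 0.45). The share of miR395 and miR169 kept its side of the threshold without miR157 (exact permutation p = 0.02). For the number of miRNAs detected this check could not decide anything. miR157 had far more than 3 tags in every library, so leaving it out could not change that difference or its p.

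**Figure D3:**
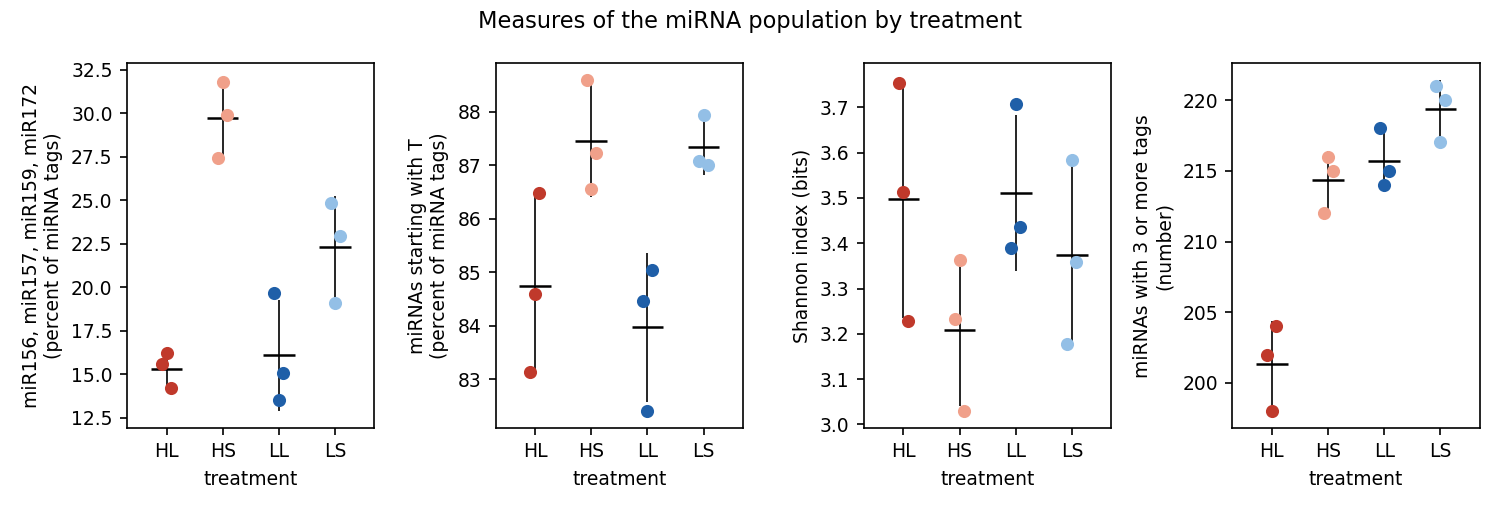
Measures of the miRNA population by treatment, HL, HS, LL and LS on the horizontal axis, with 1 point per library, the mean as a horizontal bar and the SD (n = 3) as a vertical line. The vertical axes are percent of miRNA tags for the phase change miRNAs and for miRNAs starting with T, bits for the Shannon index, and the number of miRNAs with 3 or more tags, and none starts at 0. The phase change share lies at 13.5 to 19.7% in HL and LL and at 19.1 to 31.8% in HS and LS.

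Fewer miRNAs were detected in long photoperiod. At least 3 tags were counted for 202, 198 and 204 miRNAs in HL and for 212, 216 and 215 in HS, then for 218, 214 and 215 in LL and for 221, 217 and 220 in LS. The mean difference was -8.33 miRNAs (exact permutation p = 0.01, adjusted p = 0.0383). HL lay below HS by at least 8 miRNAs in every pair of libraries, whereas LL replicate 1 lay above LS replicate 2. The Shannon index, which rises when tags are spread more evenly over miRNAs, was 3.50 ± 0.20 bits in long and 3.29 ± 0.19 bits in short photoperiod (SD, n = 6 each, exact permutation p = 0.095). Without HL replicate 3 the difference in this index was 0.281 bits (exact permutation p = 0.045). miRNAs listed at 21 nt, the usual length of plant miRNAs cut by DICER-LIKE1, made up 90.8 ± 1.3% of the tags in long and 91.8 ± 1.8% in short photoperiod (exact permutation p = 0.29). Those listed at 23 nt made up 4.10 ± 1.04% and 3.11 ± 1.25% (exact permutation p = 0.205).

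By abundance, all 7 miRNAs over 1000 CPM on average were below 0, with a median log2 change of -0.34 (2 of 7 below 0 and a median of 0.10 with the summed miRNA tags as library size), and together they reached 38325 ± 9540 CPM in long and 54031 ± 18801 CPM in short photoperiod (SD, n = 6 each). The 75 miRNAs between 10 and 100 CPM had a median of 0.05 and a summed level of 2688 ± 115 CPM in long and 2700.1 ± 253 CPM in short photoperiod. The 83 miRNAs under 1 CPM had a median of -0.21, and 54 of them were below 0 (65.1%). Of all 248 tested miRNAs, 56% were below 0. By length, the median was -0.15 for 118 miRNAs of 21 nt and 0.01 for 92 of 23 nt. At an unadjusted p under 0.05 in edgeR, 15 of the 118 and 1 of the 92 were lower, against 19 of all 248 (7.66%). With the summed miRNA tags as library size, only 4 of the 248 were lower at that limit. By first base it was -0.11 for 157 miRNAs with T, -0.03 for 43 with A, 0.03 for 31 with C and -0.08 for 17 with G. These medians are descriptions of the population and were not tested against each other.

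Of the 28 miRNAs of the 7 role lists, 24 had log2 changes below 0, against 56% of all tested miRNAs, also with TMM scaling and DESeq2, but 9 of 28 with the summed miRNA tags as library size. That library size moved the median of all miRNAs by 0.37, to 0.32, and the changes below are relative to clean reads unless stated. At an unadjusted p under 0.05, 8 of the 28 were lower and 0 were higher, against 7.66% and 0.403% of all. Only miR827 among them passed the thresholds. The lists were chosen with earlier results of these data known, so the counts are descriptive.

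Among the miRNAs of phase change, all 4 had log2 changes below 0, with a median of -0.70 (3 of 4 and -0.25 with the summed miRNA tags as library size). miR156 had 816, 965 and 1122 CPM in HL, against 1394, 1362 and 2070 CPM in HS, and 1329, 648 and 1013 CPM in LL, against 2406, 641 and 1352 CPM in LS. HL lay below HS in every library, and LL and LS overlapped. Its change was -0.65 (SE 0.29, unadjusted p = 0.0445, edgeR adjusted p = 0.561). miR172 ranged from 387 to 823 CPM in long and from 315 to 1108 CPM in short photoperiod (log2 change -0.17, SE 0.28). miR159, which represses GAMYB-like factors in Arabidopsis, ranged from 20.6 to 195 CPM in long and from 60.9 to 315 CPM in short photoperiod (log2 change -0.76, SE 0.44, edgeR adjusted p = 0.596).

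**Figure D4:**
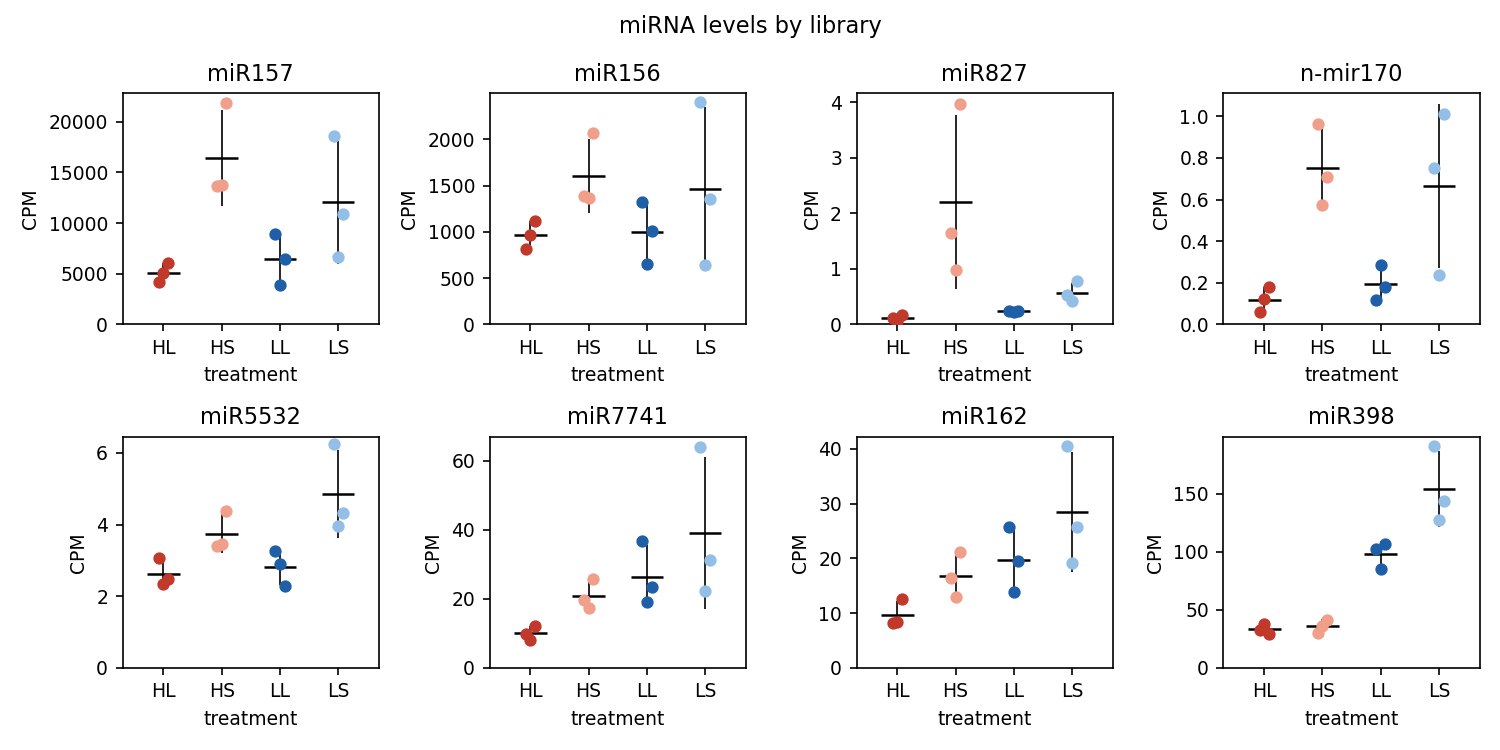
CPM on a linear axis from 0 (vertical axis) for 8 miRNAs in HL, HS, LL and LS (horizontal axis), with 1 point per library, the mean as a horizontal bar and the SD (n = 3) as a vertical line. miR827 and n-mir170 passed the test for photoperiod, and the other 6 did not. miR827 and miR5532 are the ones of the 8 in which every HL and LL library lies below every HS and LS library.

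The 9 miRNAs of meristem, organ and auxin development had a median of -0.19, which turned to 0.22 with the summed miRNA tags as library size, and 0 of 9 reached an unadjusted p under 0.05 in edgeR. miR166 had 11837 to 24197 CPM in long and 14242 to 28743 CPM in short photoperiod (log2 change -0.26, SE 0.31). miR167 had 5939 to 14385 CPM in long and 5400 to 21892 CPM in short photoperiod (-0.37, SE 0.36). The changes were -0.12 (SE 0.38) for miR164, which represses CUC boundary factors, -0.10 (SE 0.23) for miR390, which triggers the trans-acting siRNAs against auxin response factors, and -0.39 (SE 0.26) for miR160, listed with its 3′ arm and not the 5′ arm that represses other auxin response factors. miR393 against the auxin receptors (0.08, SE 0.49), miR394 (-0.19, SE 0.66), miR396 (-0.48, SE 0.31), listed with its 3′ arm and not the 5′ arm that acts on growth-regulating factors, and miR171 against HAM-type GRAS factors (-0.17, SE 0.14) completed the list. The summed level of the 9 was 27954 ± 6834 CPM in long and 33910 ± 11651 CPM in short photoperiod (SD, n = 6 each), in the opposite direction to their share of the miRNA tags.

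Of the miRNAs that act on the miRNA machinery in Arabidopsis, miR162, which cuts the mRNA of DICER-LIKE1, was between 8.22 and 25.7 CPM in long (median 13.3) and between 12.9 and 40.5 CPM in short photoperiod (median 20.2). The HL libraries lay below the HS libraries, and LL and LS overlapped. The log2 change was -0.66 (SE 0.22, unadjusted p = 0.00991, edgeR adjusted p = 0.351). miR168, which cuts the mRNA of ARGONAUTE1, was between 536 and 1307 CPM in long and between 807 and 1479 CPM in short photoperiod (log2 change -0.34, SE 0.25).

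The nutrient-related miRNAs had changes on both sides of 0, and only miR827 passed the test. Beside miR827, the phosphate miRNAs were miR399, which represses the PHO2 ubiquitin-conjugating enzyme in Arabidopsis, at -0.27 (SE 0.32), and miR2111 at -0.36 (SE 0.24). Of the copper families, miR398 was listed with its 5′ arm, whereas the targets known for the family, the copper/zinc superoxide dismutases, are matched by the 3′ arm, so the values below carry no role. It had 32.4, 37.9 and 29.0 CPM in HL, against 29.6, 36.4 and 41.4 CPM in HS, and 102, 85.4 and 106 CPM in LL, against 191, 127 and 144 CPM in LS. Only the low temperature libraries did not overlap between photoperiods. Its photoperiod change was -0.38 (SE 0.14, unadjusted p = 0.02, edgeR adjusted p = 0.555), and 0.03 with the summed miRNA tags as library size. The difference between temperatures, 0.54 (SE 0.29), had an unadjusted p of 0.0858. miR397, which represses laccases, was at 0.02 (SE 0.32), and miR408, also listed with the 5′ arm and not the 3′ arm that matches its known targets, was at 0.07 (SE 0.32).

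miR395, which represses sulfate assimilation genes, was counted 0 to 3 times in the long photoperiod libraries and 2 to 13 times in the short ones (log2 change -1.25, SE 0.55, edgeR adjusted p = 0.561). miR169, which represses NF-YA factors and responds to nitrogen, ranged from 147 to 295 CPM in long and from 97.4 to 284 CPM in short photoperiod (log2 change 0.15, SE 0.25). The summed share of miR395 and miR169, nearly all of it miR169, was 0.404 ± 0.075% of miRNA tags in long and 0.265 ± 0.034% in short photoperiod (SD, n = 6 each, exact permutation p = 0.005, adjusted p = 0.0383). The 2 sets of libraries did not overlap in this share, with 0.325 to 0.515% in long and 0.221 to 0.317% in short photoperiod. With the summed miRNA tags as library size, miR169 alone had a log2 change of 0.61 (unadjusted p = 0.0101, edgeR adjusted p = 0.425). That of miR395 was -0.89 in the same fit. The p of the share is descriptive, as for the other lists.

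In the list of other plant families all 5 members were below 0, with a median of -0.33 (2 of 5 and 0.05 with the summed miRNA tags as library size). miR530 had a log2 change of -0.59 (SE 0.25, unadjusted p = 0.0363) and miR2950 of -0.66 (SE 0.31, unadjusted p = 0.0499), and neither passed the adjusted test. miR4414, the most abundant miRNA of the list, was at -0.22 (SE 0.30), miR477 at -0.33 (SE 0.18) and miR860 at -0.20 (SE 0.16).

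Outside these lists, the smallest p-values among lower miRNAs belonged to known families without a role stated here and to low miRNAs. miR5532 had 3.08, 2.34 and 2.48 CPM in HL, against 3.41, 3.45 and 4.38 CPM in HS, and 3.26, 2.89 and 2.28 CPM in LL, against 6.24, 3.95 and 4.34 CPM in LS. It was, with miR827 and n-mir75, one of the 3 miRNAs (1.21%) in which all 6 long photoperiod libraries lay below all 6 short ones, and 0 miRNAs showed the opposite. Its change was -0.65 (SE 0.18, unadjusted p = 0.00275, edgeR adjusted p = 0.17). miR7741 had 8.09 to 36.8 CPM in long and 17.2 to 64.1 CPM in short photoperiod (log2 change -0.81, SE 0.25, edgeR adjusted p = 0.307). n-mir14 had a median of 23.1 CPM in long and of 33.8 CPM in short photoperiod (log2 change -0.59, SE 0.23, edgeR adjusted p = 0.561).

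n-mir75 was counted 3, 0 and 3 times in HL, against 8, 5 and 9 times in HS, and 3, 4 and 2 times in LL, against 5, 4 and 4 times in LS. n-mir45 was counted 1, 0 and 1 times in HL, against 3, 4 and 3 times in HS, and 1, 5 and 1 times in LL, against 13, 3 and 7 times in LS. LL replicate 2 and LS replicates 2 and 3 had 4 tags of n-mir75 each, so their order in CPM followed from the number of clean reads alone. Of the 20 miRNAs with an unadjusted p under 0.05, 8 averaged less than 1 CPM.

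On the higher side the changes were small. miR4234 had 46.4, 42.2 and 42.9 CPM in HL, against 38.0, 33.9 and 29.7 CPM in HS, and 30.8, 36.5 and 36.3 CPM in LL, against 30.9, 34.8 and 28.6 CPM in LS. HL lay above HS in every library, and LL and LS overlapped. The log2 change was 0.25 (SE 0.12, unadjusted p = 0.0487, edgeR adjusted p = 0.561). n-mir214 had 87.2, 87.9 and 99.3 CPM in HL, against 73.2, 63.4 and 70.4 CPM in HS, whereas LL and LS overlapped at 52.0 to 66.0 CPM in LL and 54.4 to 64.7 CPM in LS (photoperiod log2 change 0.22, SE 0.12, edgeR adjusted p = 0.562). The other 8 of the 10 smallest p-values on this side were n-mir58, n-mir13, n-mir171, miR5788, n-mir296, n-mir38, n-mir262 and n-mir142. They had log2 changes between 0.22 and 1.32, the last for n-mir58 with 22 tags in all, and 0 of them reached an unadjusted p under 0.05.

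The effect of day length was also taken at each temperature. HL against HS gave 2 calls, miR827 and n-mir170 (0.806%), both lower in HL, and LL against LS gave 0 calls. In LL against LS, 13 miRNAs had an unadjusted p under 0.05 in edgeR, 1 higher (0.403%) and 12 lower (4.84%), and DESeq2 also gave 0 calls. In HL against HS 18 did, 5 higher (2.02%) and 13 lower (5.24%). Both splits changed with single libraries and with the scaling. LS replicate 1 had 8.97% of clean reads as miRNA tags, against 4.00 and 5.60% in the other LS libraries, and without it LL against LS had 7 higher and 7 lower, while without LS replicate 2 it had 3 higher and 20 lower. HL against HS had 1 higher and 5 lower without HS replicate 3. With the summed miRNA tags as library size there were 21 higher and 6 lower in HL against HS and 5 higher and 5 lower in LL against LS. TMM scaling gave 3 higher and 15 lower in HL against HS and 4 higher and 12 lower in LL against LS, and DESeq2 gave 3 higher and 5 lower in LL against LS. In HL against HS only miR827 was called when any single HL, HS or LL library was left out, while without LS replicate 1 miR157 was called as well. In LL against LS n-mir170 was called without LS replicate 2. The interaction of photoperiod and temperature gave 0 calls in edgeR and in DESeq2, with 11 miRNAs at an unadjusted p under 0.05 (4.44%), so no difference between the temperatures was established for any miRNA.

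HL lay above HS in all libraries for 29 miRNAs (11.7%) and below for 28 (11.3%), and LL lay above LS for 2 (0.806%) and below for 12 (4.84%). A total of 135 miRNAs (54.4%) had the same sign at both temperatures, 87 below 0 (35.1%) and 48 above 0 (19.4%). Over the 248 miRNAs the log2 changes at high and at low temperature had a Pearson r of 0.07 (Spearman rho 0.25), and over the 101 miRNAs with at least 10 CPM an r of 0.37 (rho 0.43). These are correlations across miRNAs of 2 comparisons that share no library, and miRNAs are not independent replicates.

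**Figure D5:**
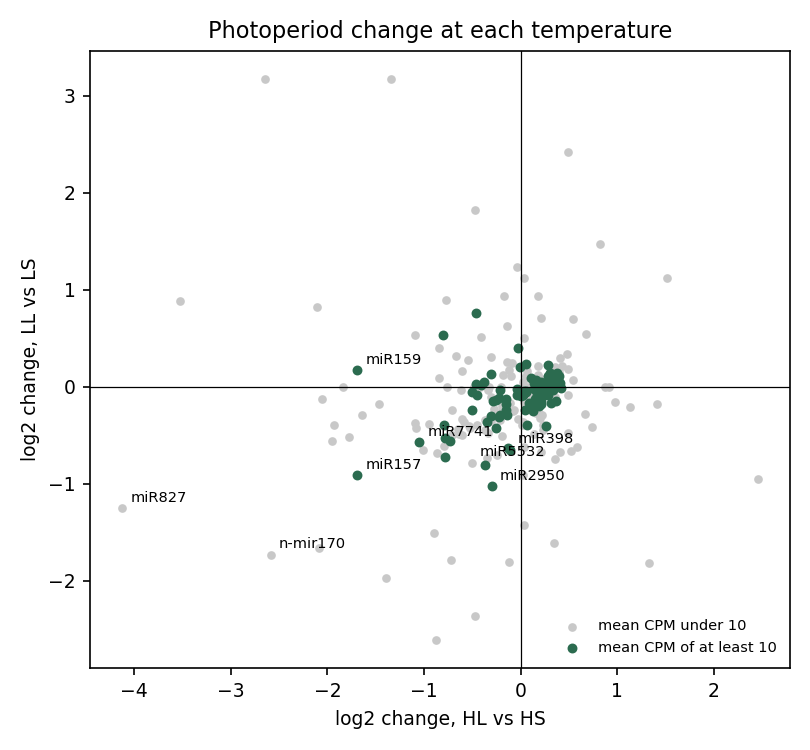
Log2 change in HL vs HS (horizontal axis) and in LL vs LS (vertical axis) for 248 miRNAs, with those of at least 10 CPM on average in green and the rest in grey. miR827, n-mir170 and miR157 lie in the lower left, below 0 at both temperatures, whereas miR159 was at -1.69 in HL vs HS and 0.17 in LL vs LS.

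miR159 had a low value in HL against HS but not in LL against LS, and the difference did not pass the test. It had 20.6, 92.6 and 60.1 CPM in HL, against 60.9, 183 and 315 CPM in HS, and 195, 62.2 and 86.3 CPM in LL, against 167, 70.3 and 68.7 CPM in LS. The libraries overlapped at both temperatures. The interaction was -1.86 (SE 0.88, unadjusted p = 0.0543, edgeR adjusted p = 0.937).

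The effect of temperature was taken from the same fit. High against low temperature gave 18 calls (7.26%), 3 higher (1.21%) and 15 lower (6.05%), and 52 miRNAs with an adjusted p under 0.05 (21%), while photoperiod gave 2 by either rule. The median size of the log2 change was 0.20 for photoperiod and 0.37 for temperature. Of the 20 miRNAs with an unadjusted p under 0.05 for photoperiod, 9 also had an adjusted p under 0.05 for temperature, among them miR398 (temperature change -1.83), miR530 (-1.62), n-mir14 (-1.46), miR7741 (-1.15) and miR162 (-0.89). miR827 (0.50), n-mir170 (-0.26), miR157 (0.06) and miR5532 (-0.23) were not among them, with adjusted p-values for temperature of 0.614, 0.784, 0.927 and 0.414 in edgeR. The difference between the size of both effects was not tested.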

How the data were processed

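The authors deposited raw counts of tags per mature miRNA for 12 small RNA libraries (HL, HS, LL and LS, 3 each). Tags of 18 to 30 nt had been mapped to the cucumber genome and summed per miRNA, with up to 3 mismatches at the ends and none in the middle. The mapper's version is not given in the sources used here. Treatments came from the sample titles. The number of per-sample columns left out was 0. Counts were fitted with edgeR 4.0.16 (glmQLFit and glmQLFTest, 4 treatment means, two-sided), with the clean reads of each library from the study's sequencing summary as library size. Photoperiod was the mean of HL and LL minus the mean of HS and LS. p-values were Benjamini-Hochberg adjusted over 248 miRNAs, and SE was taken as the size of a change over the root of its F. Population measures were tested by exact permutation of the photoperiod labels within temperature (400 arrangements), adjusted over 23 measures. The replicates are stated to be biological.

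Named miRNAs were those called in any photoperiod comparison, the 10 smallest p-values in each direction, the 10 most abundant and all list members. n-mir28, n-mir145, n-mir17, n-mir267, n-mir293, n-mir59, n-mir60 and n-mir107 were named outside this rule after their values were seen. The members and lists were chosen with earlier results of these data known, and the 2 measures of tags as percent of clean reads by kind were added later. Alternatives were TMM scaling, summed miRNA counts as library size, DESeq2 1.42.0, limma 3.58.1 on log2(CPM + 1), all 249 miRNAs without a filter, a filter of 10 counts in 3 or more libraries, an additive model, a replicate block, each library left out, and the measures without miR157 or the 3 most abundant miRNAs. The fit was tested on simulated data. The mRNA and degradome tables were not used here.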

Additional observations from a re-analysis of the deposited data

How the results depend on the processing

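Of 895 values of the 45 named miRNAs under the alternatives, 881 kept their direction and their side of the threshold or had no call to lose, 8 lost the adjusted call, 5 gained it and 1 turned (miR398, 0.0296 with the summed miRNA counts as library size). In 19 of the 45, the sign turned in 41 values in all, and no call turned. The 8 were miR827 without LS replicate 3 and n-mir170 in 7 fits, and the 5 were miR157. The summed miRNA counts as library size moved the median log2 change of all miRNAs by 0.37, to 0.32, and gave 15 higher and 4 lower miRNAs at an unadjusted p under 0.05. DESeq2 gave 10 higher and 11 lower, against 1 and 19 in the main test. Photoperiod calls were 0 with limma, since changes on log2(CPM + 1) are smaller for rare miRNAs (miR827 -0.87, n-mir170 -0.55), though limma gave both an adjusted p of 0.0266, 3 with TMM or DESeq2 and 20 at an unadjusted p under 0.05 without the fold threshold. Leaving out 1 library gave 2 to 3 photoperiod calls, 0 to 3 by adjusted p, 1 to 3 in HL against HS (1 with limma), 0 to 1 in LL against LS and 0 to 1 for the interaction (n-mir107 without HS replicate 2). The calls by TMM and DESeq2 in HL against HS were 3.

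The difference in summed miRNA tags ranged from -2.15 to -0.913 points when 1 library was left out. The phase change share differed by -0.679 points without miR157 and by -2.53 without the 3 most abundant miRNAs (exact permutation p = 0.085), the share starting with T by -1.45 without the 3, and the meristem and auxin share by -1.46 without miR157. Same-numbered libraries had correlated deviations in 14 of 18 pairs (r over 0.1), from -0.07 to 0.76, and 11 of 12 libraries correlated best with their own number, a hint from the data and not from the design. With a replicate block, photoperiod gave 3 calls, HL against HS 3, LL against LS 0 and the interaction 0, with 34 miRNAs at an unadjusted p under 0.05 and an adjusted p of 0.039 for miR157. The paired exact test, whose smallest p is 0.0313, gave that p for the summed tags (-1.61 points, lower in 6 of 6 pairs) and for 6 of the 7 measures with an adjusted p under 0.05, while the share starting with A had p = 0.0625. All 7 had an unadjusted p under 0.05 in the exact permutation test whichever of the 12 libraries was left out. Depth limits the rare miRNAs, since 83 of those tested averaged under 1 CPM, against a floor of 0.170 to 0.180 CPM.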
